A study of Homo sapiens with 28 samples.

Results

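The stretch of human chromosome 9 that holds CDKN2A, CDKN2B and MTAP was examined for H3K27ac, acetylation of histone H3 at lysine 27, a mark that active promoters and enhancers carry. It was taken as a window of 1 Mb, chr9:21500000-22500000 of hg19 (GRCh37), with MTAP at 21802635-21865969, CDKN2A at 21967751-21994490 and CDKN2B at 22002902-22009312. Every peak of 14 peak lists that overlapped the window was kept, which gave 673 of 654580 peaks. Joined wherever they overlapped between lists, these made 119 regions of 138728 on the autosomes and the X chromosome. All 3 genes carried a peak in 14 of 14 lists.

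The cells were SW872, an established human liposarcoma line, stably transduced with 1 of 7 constructs, with 2 libraries for each. The labels name an empty vector, the 2 fusion proteins of epithelioid hemangioendothelioma (TAZ-CAMTA1 and YAP-TFE3), the hyperactive TAZ4SA and YAP5SA, coactivators whose serines targeted by Hippo kinases are replaced, and the full-length fusion partners CAMTA1 and TFE3. Per the methods the constructs were Flag-tagged, the cells were grown to 90% confluence and the H3K27ac libraries were biological duplicates. CAMTA1 cells were collected before confluence according to the labels. All groups share 1 cell line, so each value describes that line only.

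Labels and lists disagree on the construct. In 14 of 14 lists the peaks bear another construct in their names than the label of the library. Lists labelled empty vector bear CAMTA1, those labelled TAZ4SA bear the empty vector, those labelled TAZ-CAMTA1 bear TAZ4SA, and those labelled CAMTA1 bear TAZ-CAMTA1. Lists labelled YAP5SA bear TFE3, those labelled YAP-TFE3 bear YAP5SA, and those labelled TFE3 bear YAP-TFE3. Both namings put the same libraries together as pairs, but which construct a pair expressed was not settled. Groups below follow the labels, and each library is called by its label, as in the library labelled TAZ4SA.

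CDKN2A encodes p16INK4A, an inhibitor of the kinases CDK4 and CDK6, and, from a separate first exon farther upstream and another reading frame, p14ARF, which stabilises p53 by restraining MDM2. CDKN2B encodes p15INK4B, a close relative of p16INK4A that inhibits the same kinases and responds to TGF-beta. MTAP encodes methylthioadenosine phosphorylase, which salvages adenine and methionine from a by-product of polyamine synthesis. The genes are neighbours and are often lost together in tumours. CDKN2A and CDKN2B are read on the minus strand and MTAP on the plus strand. The long noncoding CDKN2B-AS1, also called ANRIL, starts beside the ARF start and runs in the opposite direction across CDKN2B. ChIP fragments carry no strand, so a peak there cannot be given to 1 of these transcripts.

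The promoters of the 3 genes are shown because each lay in a region with a peak in all 14 lists. Such regions, joined over lists, were 6220 to 12736 bp wide in the window, so the peak of a single list need not reach the promoter. RefSeq gives 4 starts for the 3 genes, 2 of these for CDKN2A. Each sequence runs from 250 bases before the start to 50 after it, in the direction of the gene, from GRCh38.p14, since no sequence of the lists' own build was used. The starts can still be placed, because the distance from the MTAP start to the CDKN2B start was 206677 bp in both builds and that from the 3′ end of CDKN2A to the CDKN2B start was 41561 bp in both. Capitals mark matches, on either strand, to GGAATG, the core of the site of the TEAD factors that carry YAP and TAZ to DNA, or to GGGCGG, the GC box of SP and KLF factors.
CDKN2A, INK4A start, chr9:21974808-21975107, minus strand: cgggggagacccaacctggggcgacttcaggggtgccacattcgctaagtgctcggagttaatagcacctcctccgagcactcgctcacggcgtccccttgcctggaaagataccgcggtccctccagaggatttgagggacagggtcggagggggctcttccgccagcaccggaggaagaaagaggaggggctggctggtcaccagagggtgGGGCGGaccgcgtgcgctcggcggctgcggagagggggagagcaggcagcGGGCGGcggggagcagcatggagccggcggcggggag
CDKN2A, ARF start, chr9:21995275-21995574, minus strand: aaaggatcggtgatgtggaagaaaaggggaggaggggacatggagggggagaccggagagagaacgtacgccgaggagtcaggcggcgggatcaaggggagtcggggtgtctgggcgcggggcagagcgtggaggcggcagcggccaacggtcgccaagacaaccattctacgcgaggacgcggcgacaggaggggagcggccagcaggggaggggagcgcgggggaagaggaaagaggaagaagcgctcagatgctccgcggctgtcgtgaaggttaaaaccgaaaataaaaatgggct
CDKN2B, chr9:22009256-22009555, minus strand: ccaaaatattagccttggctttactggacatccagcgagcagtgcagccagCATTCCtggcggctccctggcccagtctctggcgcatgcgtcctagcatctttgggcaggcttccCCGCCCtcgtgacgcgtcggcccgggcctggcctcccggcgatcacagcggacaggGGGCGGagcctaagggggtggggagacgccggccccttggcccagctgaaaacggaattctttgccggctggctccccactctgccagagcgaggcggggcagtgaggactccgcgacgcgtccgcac
MTAP, chr9:21802386-21802685, plus strand: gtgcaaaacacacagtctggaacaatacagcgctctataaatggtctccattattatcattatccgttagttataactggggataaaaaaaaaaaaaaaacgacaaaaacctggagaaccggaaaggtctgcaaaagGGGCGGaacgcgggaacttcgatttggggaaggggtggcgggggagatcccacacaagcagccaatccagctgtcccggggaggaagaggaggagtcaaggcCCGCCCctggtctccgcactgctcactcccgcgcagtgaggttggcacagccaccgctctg

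The INK4A, ARF and CDKN2B promoters were rich in CG, and the MTAP promoter was near the middle of all promoters. GC content was 69% at the INK4A start, 63.3% at the ARF start and 67.3% at CDKN2B, against 53% at MTAP and a median of 58.7% over 35116 RefSeq promoters. They held 26, 28, 25 and 15 CG dinucleotides, in that order, against a median of 14. The TEAD core occurred once, in the CDKN2B promoter, at position −199 from the start, and 14.03% of all promoters hold it. The GC box occurred 2 times in each of the INK4A, CDKN2B and MTAP promoters and not in the ARF promoter, and 44.95% of all promoters hold it. TGANTCA, the AP-1 site, and CACGTG, the E-box bound by TFE3 and its relatives, matched in none of the 4 and are in 7.71% and 7.26% of all promoters. A match is a run of letters and not a measured binding site.

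The window was rich in shared peaks. Of its 119 regions, 7 had a peak in all 14 lists, which is 5.88% against 2.93% over all regions. Across the genome 3.11% of 1 Mb tiles held at least as many such regions. A further 9 regions had a peak in 13 lists, and the list they missed was TFE3 replicate 1 each time, so 16 regions had a peak in every other list. That library has the shortest list, 5721 peaks, against up to 102009 in the others. At the other extreme 64 regions, 53.8%, were in 1 list only, close to the 55.4% over all regions, and 45 of the 64 (70.3%) were in a list labelled TAZ4SA, the longest 2 lists, against 73.1% of such regions over the genome.

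**Figure D1:**
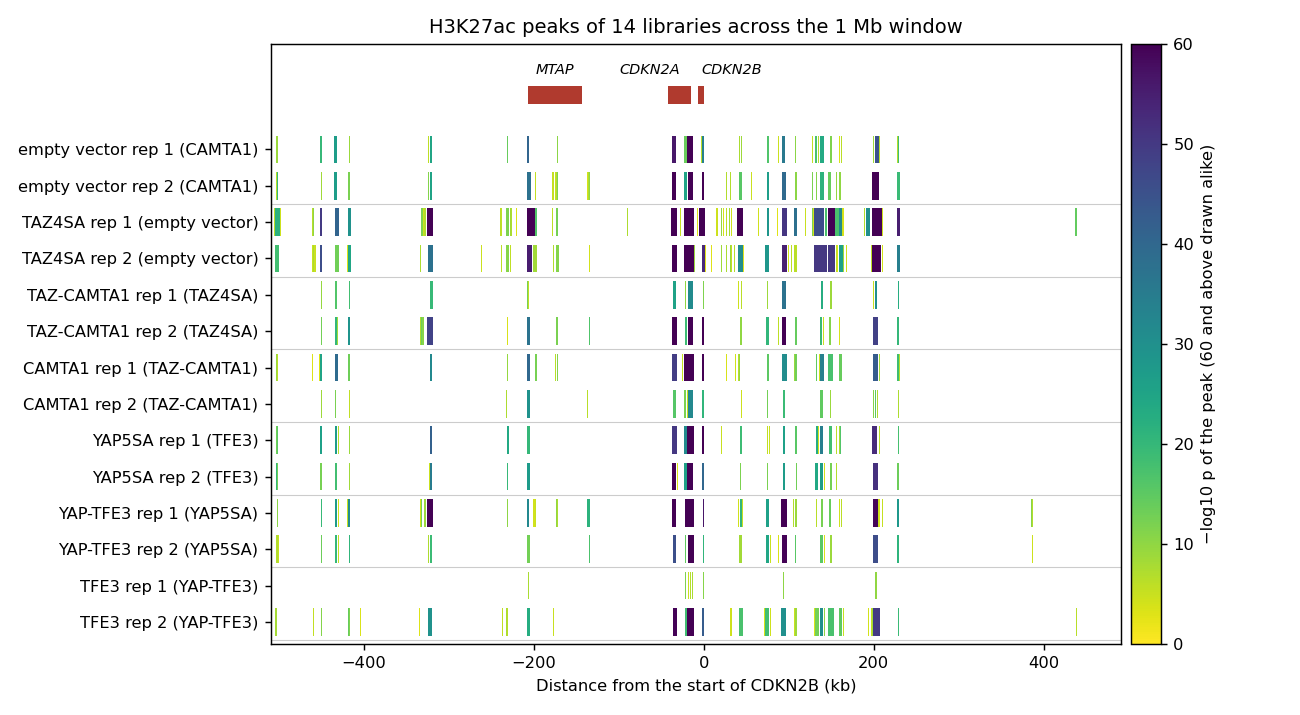
Peaks of each of the 14 lists across the window, drawn at their distance in kb from the CDKN2B start (rows name the label, then in brackets the construct in the peak names) and coloured by −log10 p, with the 3 genes as bars on top. The 7 regions with a peak in all 14 lists line up at MTAP, in and beside CDKN2A and CDKN2B, and beyond the CDKN2B start, and the right end of the window is nearly empty in every list.

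Of these shared regions, 4 lay on the genes. The first, chr9:21800915-21813057, spanned the MTAP start. The next 2 lay on CDKN2A, an inner one at chr9:21970523-21978114 and an outer one at chr9:21985629-21998030, which ran past the end of the gene interval. The region at chr9:22004233-22010452 covered the start of CDKN2B. The other 3 lay beyond the CDKN2B start, at chr9:22049043-22055739, chr9:22099950-22107882 and chr9:22205863-22218598, where the RefSeq order of genes has CDKN2B-AS1 and then DMRTA1. The 7 were 6220 to 12736 bp wide and covered 65723 bp together.

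CDKN2A had the strongest peaks. Ranked by −log10 p within its list, the best CDKN2A peak stood within the top 0.162% to 31.5%, with a median of 2.44%. For CDKN2B these values were 3.03% to 35.4% with a median of 6.43%, and for MTAP 4.35% to 76.5% with a median of 12.3%. Without TFE3 replicate 1 the CDKN2A value was at most 6.41%, while the highest value of CDKN2B (34.7%) and of MTAP (76.5%) then came from TAZ-CAMTA1 replicate 1. That MTAP value is for a peak inside the gene interval, with a fold of 3.26, while a stronger peak of the same library just before the interval, with a fold of 5.19, ranked at 32.3%. For comparison, a peak in every list was found in 3.83% of genome tiles of the length of CDKN2A, 8.12% of tiles of the length of MTAP and 1.07% of tiles of the length of CDKN2B. Tiles include intergenic sequence, so these shares are not those of tiles that hold a gene start.

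The 2 peaks of CDKN2A lay at its 2 starts. The inner summit was 34.3 to 34.7 kb from the CDKN2B start in 14 of 14 lists, and the INK4A start lies 34.4 kb from it in RefSeq. The outer summit was at 13.3 to 15.1 kb in 13 lists, and the ARF start lies at 13.98 kb. In TFE3 replicate 1 the outer summit was at 21.6 kb. The 2 summits were 19.4 to 21.3 kb apart in those 13 lists, against 20.5 kb between the 2 starts. The CDKN2A interval used here ends 14.8 kb from the CDKN2B start, so the outer summit lay beyond it, by up to 1481 bp, in 10 of 14 lists.

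**Figure D2:**
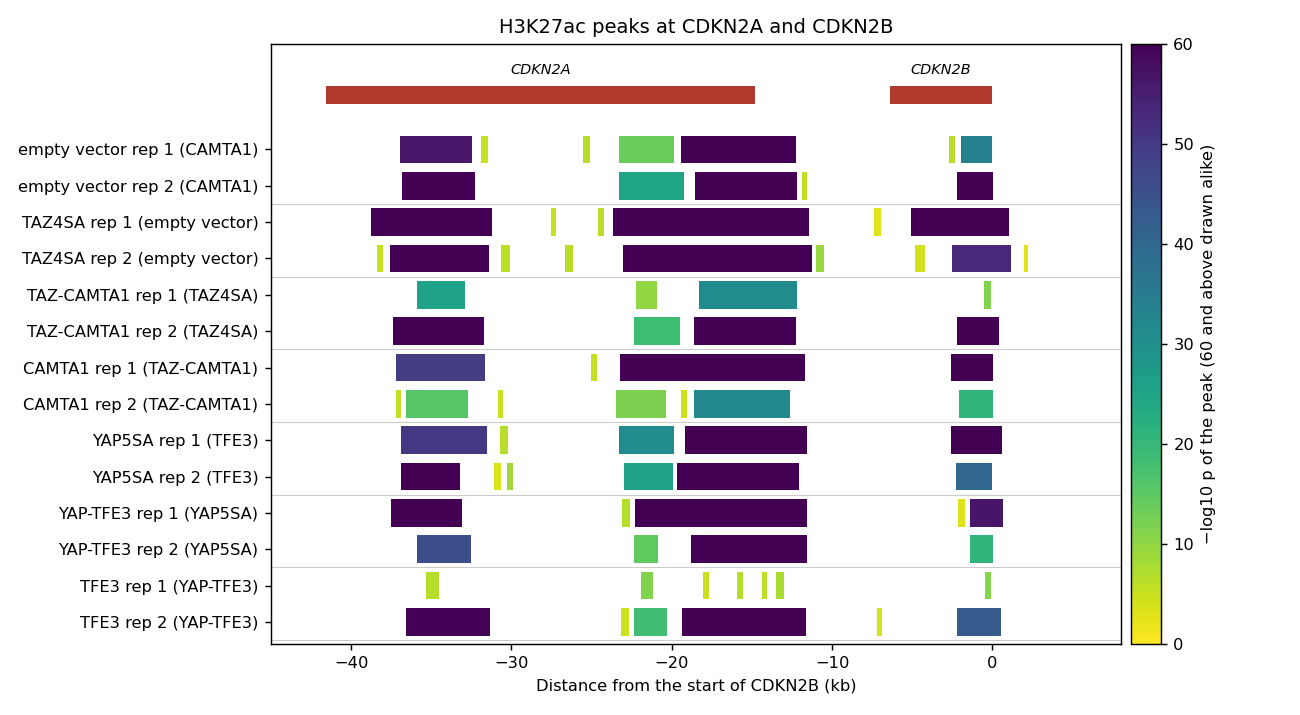
Peaks at CDKN2A and CDKN2B in each list, at their distance in kb from the CDKN2B start and coloured by −log10 p (60 and above alike), with both genes as bars. The same 3 blocks recur in every row, on the inner side of CDKN2A, between −24 and −11 kb, and at the CDKN2B start, and TFE3 replicate 1 shows them as short pieces.

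At the inner, INK4A-side region the fold enrichment at the summit was 14.8 and 14.6 in the libraries labelled empty vector, 65.7 and 38.1 in those labelled TAZ4SA, 7.60 and 16.1 in TAZ-CAMTA1, 10.5 and 5.60 in CAMTA1, 9.70 and 14.2 in YAP5SA, 15.5 and 13.2 in YAP-TFE3, and 3.39 and 16.6 in TFE3. Both libraries labelled TAZ4SA stood above the other 12. The outer, ARF-side region gave 15.0 and 13.8 in empty vector, 29.0 and 31.0 in TAZ4SA, 7.71 and 14.8 in TAZ-CAMTA1, 16.7 and 9.42 in CAMTA1, 13.8 and 13.2 in YAP5SA, 22.01 and 17.8 in YAP-TFE3, and 4.71 and 13.8 in TFE3. Here too the pair labelled TAZ4SA was highest, followed by the pair labelled YAP-TFE3. The outer region was the stronger by −log10 p in 11 of 14 lists and was the strongest of the 7 shared regions in 10. The inner region was the stronger in both lists labelled TAZ4SA and in TAZ-CAMTA1 replicate 2. With 2 libraries a label, no test of 1 label against another can give an exact two-sided p below 0.333, so these are given as values.

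CDKN2B had a single block at its start. Its strongest summit lay 165 to 414 bp inside the gene in all 14 lists. The fold enrichment there was 8.01 and 13.98 in empty vector, 20.6 and 13.8 in TAZ4SA, 4.33 and 16.2 in TAZ-CAMTA1, 13.9 and 7.26 in CAMTA1, 12.9 and 8.77 in YAP5SA, 12.3 and 6.82 in YAP-TFE3, and 5.01 and 13.6 in TFE3. Replicates of a label were often as far apart as labels, and the pair labelled TAZ4SA overlapped the rest.

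MTAP carried its strongest peak at the start as well, at −499 to 496 bp from it. The fold at the start region was 12.9 and 11.02 in empty vector, 22.6 and 16.1 in TAZ4SA, 5.19 and 12.1 in TAZ-CAMTA1, 9.86 and 10.6 in CAMTA1, 4.68 and 7.87 in YAP5SA, 8.65 and 4.80 in YAP-TFE3, and 4.20 and 6.75 in TFE3. The lists labelled TAZ4SA again had the highest values. The inner part of the gene held a stretch of 24.5 kb, chr9:21840290-21864806, with no peak in any list.

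The shared regions beyond CDKN2B differed in strength. The nearest, chr9:22049043-22055739, was the weakest of the 7 by −log10 p in 13 of 14 lists, with a fold of 3.27 to 17.3 and a median of 4.88. The middle one, chr9:22099950-22107882, ranged from 4.91 to 18.7 with a median of 10.2, and in TAZ-CAMTA1 replicate 1 it was the strongest of the 7. The farthest, chr9:22205863-22218598, ranged from 4.03 to 25.6 with a median of 11.9, above the MTAP start (9.26) and below CDKN2B (12.6). As at the MTAP start and CDKN2A, the libraries labelled TAZ4SA had the 2 highest folds at the nearest region (17.3 and 12.4) and at the farthest (25.6 and 17.8).

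**Figure D3:**
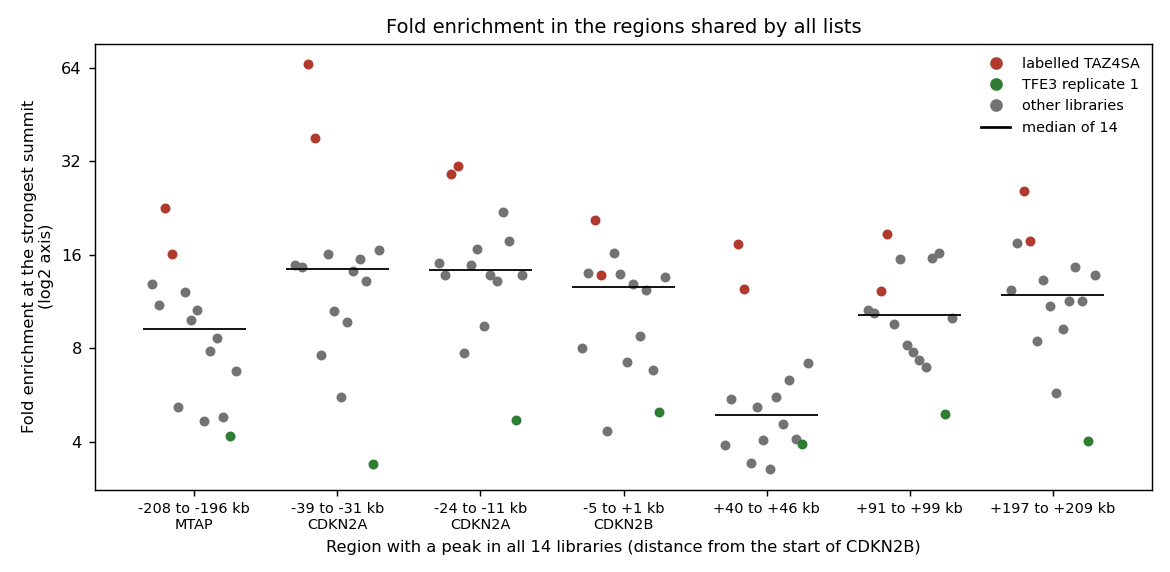
Fold enrichment at the strongest summit (log2 axis) in the 7 regions that had a peak in all 14 lists, 1 point a library, with the median of the 14 as a line. The libraries labelled TAZ4SA are the 2 highest at the MTAP start, at both CDKN2A regions and at the nearest and farthest regions beyond CDKN2B, and TFE3 replicate 1 is the lowest at both CDKN2A regions.

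Fold enrichment is relative to the background of each library, which differed. The background solved from fold and p at the 1st percentile of a list was 1.42 to 2.80 fragments, and the background median in the window was 1.12 to 1.47 times that of the whole list, higher in 14 of 14 lists. TAZ4SA replicate 2, among the highest by fold at CDKN2A and MTAP, had the lowest background, 1.42 at the 1st percentile and a median of 1.95 in the window. Its strongest CDKN2A summit, in the inner region, held 111 fragments. The strongest in both empty vector libraries held 104 but lay in the outer region, so these counts are from different sites. Its MTAP summit in TAZ4SA replicate 2 held 57 against 56 in CAMTA1 replicate 1. TAZ4SA replicate 1 had a background of 2.18, above the median of 2.10, and the most fragments of any library at MTAP (96) and CDKN2B (107, against at most 79 in the other labels). The strongest CDKN2A summit rested on 25 to 111 fragments in the 13 lists where it could be solved, all but TAZ4SA replicate 1, that of CDKN2B on 21 to 107 and that of MTAP on 16 to 96. The medians over lists were 88, 61.5 and 44.5 fragments, so relative counting error was largest at MTAP.

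Peaks covered a larger share of CDKN2A than of CDKN2B or MTAP in 13 of 14 lists, the exception being TAZ4SA replicate 1, where CDKN2B was covered most. They covered 50.1% and 46.1% of its length in empty vector, 64.1% and 58.9% in TAZ4SA, 29.1% and 46.2% in TAZ-CAMTA1, 53.7% and 44.2% in CAMTA1, 51.0% and 46.3% in YAP5SA, 46.1% and 33.1% in YAP-TFE3, and 8.39% and 46.1% in TFE3. For CDKN2B the values were 35.6% and 34.9%, 79.2% and 49.6%, 6.71% and 34.9%, 39.9% and 32.8%, 40.1% and 34.8%, 27.97% and 21.7%, and 6.77% and 34.4%, in the same order of labels. For MTAP they were 4.61% and 14.6%, 25.5% and 24.7%, 1.72% and 8.71%, 11.8% and 3.24%, 5.22% and 6.08%, 10.4% and 3.50%, and 0.993% and 7.17%. In each gene both libraries labelled TAZ4SA, which have the 2 longest lists, lay above all 12 others, whose highest values were 53.7%, 40.1% and 14.6%. The means of that pair were 61.5% ± 3.66 for CDKN2A, 64.4% ± 21.0 for CDKN2B and 25.1% ± 0.531 for MTAP (SD, n = 2).

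**Figure D4:**
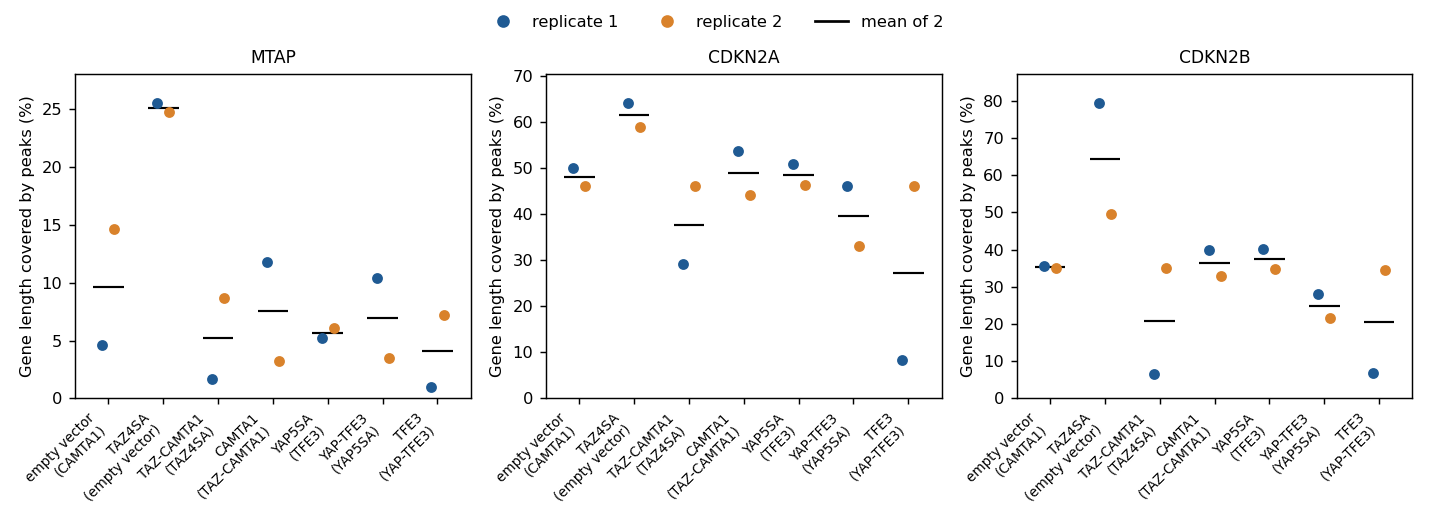
Percent of the length of each gene covered by peaks, by label (in brackets the construct in the peak names), with replicates 1 and 2 as points and their mean as a line. The pair labelled TAZ4SA is highest in all 3 genes, and the pairs labelled TAZ4SA, TAZ-CAMTA1 and TFE3 are the farthest apart in CDKN2B.

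Whether replicates of a label were closer than libraries at large was tested by an exact permutation test over all 135135 ways to pair the 14 libraries. By this exact test, the label took 80.3% of the variance in coverage of MTAP (p = 0.0693, adjusted p = 0.109), 58.1% for CDKN2A (p = 0.207, adjusted p = 0.207) and 68.3% for CDKN2B (p = 0.0725, adjusted p = 0.109, Benjamini-Hochberg over the 3 genes). None passed 0.05 after adjustment. Without TFE3 replicate 2 the label took 87.3% for CDKN2A (exact permutation test, adjusted p = 0.0303), but TFE3 replicate 1, the lowest library, then stood alone in its label and added nothing to the spread within labels, which the other 6 labels gave. With each list cut to its 5721 peaks of highest −log10 p, the shares were 40.8% for MTAP (exact p = 0.543), 54.1% for CDKN2A (exact p = 0.344) and 25.9% for CDKN2B (exact p = 0.820). The 3 coverage tests were chosen after the coverage values were seen, and they hold for both namings since the pairs are the same. At this equal length both libraries of the pair labelled TAZ4SA lay above all others at CDKN2A only, with 61.5% and 53.8% against at most 52.2% in the others. At CDKN2B the pair had 79.2% and 0%, and at MTAP 12.3% and 0%. In the cut lists CDKN2A kept a peak in 14 of 14 lists, CDKN2B in 11 and MTAP in 7. Shares of genome tiles at this cut were not counted, so these counts have no background beside them. TAZ4SA replicate 2, TAZ-CAMTA1 replicate 1 and YAP-TFE3 replicate 2 kept a peak at CDKN2A alone of the 3 genes.

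Across the whole window the lists held 48 and 51 peaks in empty vector, 84 and 88 in TAZ4SA, 28 and 39 in TAZ-CAMTA1, 47 and 32 in CAMTA1, 40 and 44 in YAP5SA, 59 and 37 in YAP-TFE3, and 14 and 62 in TFE3. The pair labelled TAZ4SA had the most, and the pair labelled TFE3 held both the fewest and the third most. Per 10000 peaks of the list the order changed. The lists labelled TAZ4SA then had 8.23 and 8.89, below the median of 10.2 over all lists, and TFE3 replicate 1 had the most, 24.5. Among 1 Mb tiles, 0.914% to 13.3% held at least as many peaks as the window in the same list.

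The label took 52.2% of the variance of the log2 number of window peaks (exact permutation test, 51983 of 135135 pairings at least as high, p = 0.385). The design asks whether fusions differ from the active coactivators, from the full-length partners, and whether any construct differs from the empty vector. By label the fusions were 0.60 lower on the log2 scale than TAZ4SA and YAP5SA (difference −0.60, exact two-sided permutation p = 0.143, adjusted p = 0.429). They were 0.21 higher than CAMTA1 and TFE3 (exact p = 0.771, adjusted p = 0.771), and the 12 construct libraries differed from empty vector by −0.19 (exact p = 0.670, adjusted p = 0.771). With the constructs in the peak names, the 3 differences were −0.21, −0.41 and −1.11, the last with an exact p of 0.0330 and an adjusted p of 0.0989. No difference passed 0.05 after adjustment under either naming. The libraries labelled TFE3 were the farthest apart, and without replicate 1 the label took 82.6% of the variance (exact p = 0.0410), without replicate 2, 90.8% (exact p = 0.00336). Each of these fits takes away the widest pair and leaves a label of 1 library, so the spread within labels comes from the other 6 labels and a higher share is built in.

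**Figure D5:**
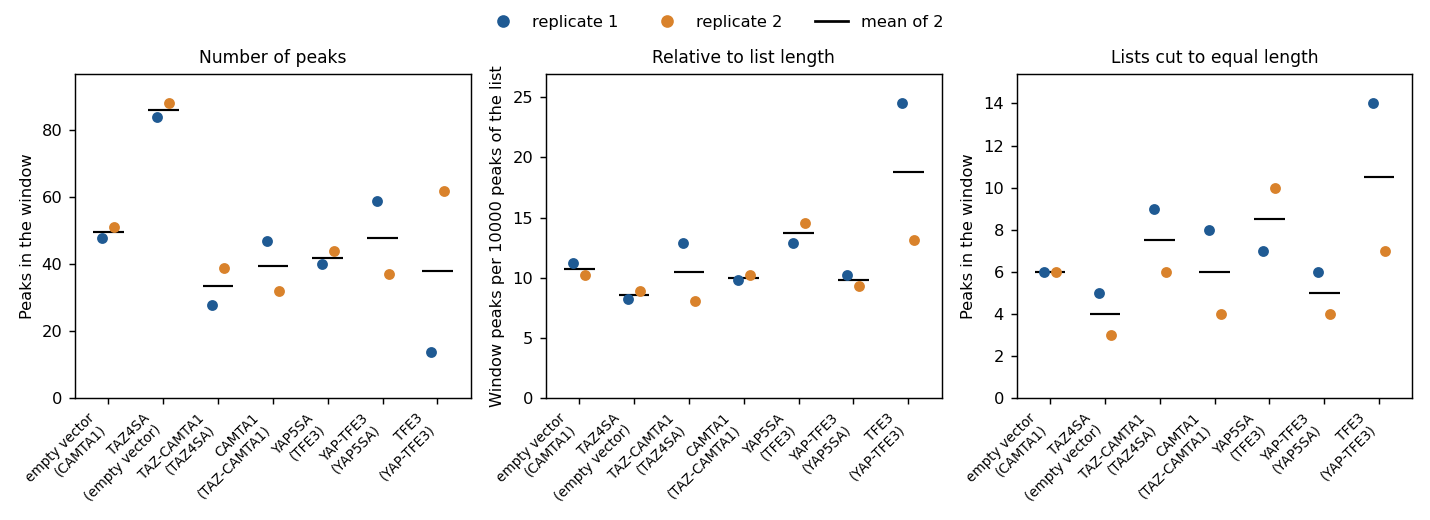
Number of peaks in the window by label, as counted, per 10000 peaks of the list, and with every list cut to its 5721 strongest peaks, with replicates as points and their mean as a line. The pair labelled TAZ4SA is highest in the first panel (84 and 88) and lowest by its mean in the other two.

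In the window, 8 regions had a peak in both lists labelled TAZ4SA, the longest lists, and in no other. These 8 are 6.72% of the regions in the window, below the 9.55% over all regions. No other label had such a region in the window, but for the other labels the share over all regions was not counted. Of the 8, chr9:21919005-21920506 lay between MTAP and CDKN2A. Nearer to MTAP in that interval, chr9:21872086-21875712 had a peak in 9 lists.

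Stretches of at least 10 kb without a peak in any list lay between and beside the genes and inside MTAP, and reached into the 3′ end of CDKN2A. None lay on the starts of the 3 genes. Peaks of any list covered 22.9% of the window, and stretches of at least 10 kb without any peak held 62.2% of it, 16 of them lying whole inside. The longest whole one, chr9:22244219-22342783, was 98.6 kb, and 3.24% of all 138705 stretches between regions, of any length and with a median of 1247 bp, are as long. Stretches at least that long hold 64.8% of all peak-free length. The window ended in a longer one, chr9:22448518-23526013, which ran on beyond it to 1077 kb. Of all stretches of any length, 0.212% are as long, 294 of 138705. In single lists this distal stretch was 1078 to 1469 kb.

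In every list a stretch without peaks led up to the inner CDKN2A region from the side of MTAP. It ran from 50.04 to 171 kb, with a median of 98.5 kb. In 9 lists it started between the genes, which lie 102 kb apart, and was at most 99.6 kb. In the other 5 it started inside MTAP, was 134 kb or longer and so takes in part of that gene. It was 95.3 kb or more in the 12 lists not labelled TAZ4SA. It ended at the inner CDKN2A region in all 14 lists. What no list covered was chr9:21920507-21970522, 50.02 kb, which reached into the 3′ end of CDKN2A, and chr9:21877176-21919004, 41.8 kb. On the far side of MTAP, chr9:21615442-21672697 (57.3 kb) and chr9:21690844-21747678 (56.8 kb) were the longest, on the side where RefSeq lists MIR31HG and the interferon genes IFNE, IFNA1 and IFNA8. A stretch without a called peak is not a measure of copy number, and the input libraries that could bear on it were not analysed here.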

How the data were processed

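H3K27ac ChIP-seq of SW872 cells was read from 14 narrow peak lists, 1 a library. Per the methods, the authors used Atropos for trimming, BWA-MEM for alignment to GRCh37 and MACS2 in paired-end mode for peak calling, after discarding greylisted regions and reads with several alignments. The labels' processing notes list bcl2fastq, BWA, MACS2 and GRCh37. The methods give a q-value limit of 0.1 and pooled replicates, whereas the deposited lists are separate by library and their lowest −log10 q was 1.30. The deposited columns used were the fold enrichment (a ratio over local background), the −log10 p-value, the −log10 q-value and the distance of the summit from the start of the peak. The 14 input libraries in the labels were not analysed here.

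Peaks were assigned to the window and genes by an overlap of at least 1 bp, and merged into regions over lists where they overlapped. Regions named are among the 25 with peaks in the most lists, overlap a gene, or border the peak-free stretch at CDKN2A, and the 4 nearest the distal end were chosen after their values were seen. Window peak numbers were compared as log2(number + 1). Labels were tested by exact permutation over all pairings of the libraries, and the 3 contrasts by exact two-sided permutation over libraries. Adjusted p-values are Benjamini-Hochberg, over the 3 contrasts or the 3 genes. Replicates are called biological duplicates in the methods. Fragments at summits were solved from fold and p with a tolerance of 0.05 for whole numbers, and 99.9954% or more of values in a list came out whole. Total reads per library are not given in the sources used here, so depth is described by list length and these fragments only. Alternatives were stricter limits (q 0.01, or a −log10 q of 5), lists cut to 5721 peaks, peaks within 1000 bp stitched, other scales, a window wider by 500 kb, the construct in the peak names, a replicate block and each library left out. Tests were run on simulated data first. Python 3.11.15, numpy 2.4.6, scipy 1.17.1 and pandas 2.3.3 were used. The window, genes and motifs were chosen with earlier results of these data known.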

Additional observations from a re-analysis of the deposited data

How the results depend on the processing

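A peak in at least 1 list was found at all 3 genes under every alternative run, a count that 14 lists leave little room to change. In lists of equal length CDKN2B had a peak in 11 of 14 and MTAP in 7, with no genome share counted at that length. No contrast of window peak number passed 0.05 after adjustment under any of them. The contrast of fusions with TAZ4SA and YAP5SA turned to 0.054 with lists cut to equal length. That of fusions with CAMTA1 and TFE3 turned to −0.29 with lists of equal length, −0.39 per 10000 peaks, −0.41 with the constructs in the peak names and −0.20 without TFE3 replicate 1. That of constructs with empty vector turned to 0.084 with equal lists, 0.077 per 10000 peaks and 0.0985 percentage points of the window covered. The cause was not tested.

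The 50016 bp stretch at CDKN2A, defined as the one that overlaps the gene most, became 6206 bp at a −log10 q of at least 5, 7514 bp with equal lists, 6664 bp when at least 2 lists had to have a peak and 3201 bp without TAZ4SA replicate 1. In all 4 the definition moved to another stretch, inside CDKN2A. The stretch over the 3′ end of the gene was still there, at 50035, 160074, 50445 and 50426 bp in the same order (a measure added after seeing the data).

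With single libraries left out, the label's share of variance of window peak number ranged from 41.2% to 90.8%, the contrasts from −0.79 to −0.42 (fusions with TAZ4SA and YAP5SA), −0.20 to 0.49 (with CAMTA1 and TFE3) and −0.28 to −0.05 (constructs with empty vector). The label's share of coverage ranged from 69.0% to 86.3% for MTAP, 50.3% to 87.3% for CDKN2A and 54.8% to 78.2% for CDKN2B, the stretch from 3201 to 50035 bp, and the genes with a peak stayed at 3. The adjusted p for coverage fell below 0.05 in 1 of these fits (CDKN2A without TFE3 replicate 2), and the p for window peak number in 2 (without TFE3 replicate 1 or 2). Unadjusted exact permutation p-values below 0.05 that did not hold after adjustment were 0.0489 for MTAP without empty vector replicate 1, and for CDKN2B 0.0357 without TAZ4SA replicate 2, 0.0383 without TAZ-CAMTA1 replicate 2 and 0.0398 without TFE3 replicate 2. Each fit leaves a label of 1 library, assumed to vary like the others. Coverage tests and their alternatives were added after seeing the data.

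Replicate numbers are shared between labels. The correlations of same-numbered deviations ranged from −0.41 to 0.45 over 21 pairs of labels, with a median of 0.0033 and 4 over 0.1. They showed no pairing common to all labels, and whether some labels share one cannot be told from them. With the replicate number as a block the label took 54.1% of the variance of window peak number (exact permutation p = 0.446), and no call changed. TFE3 replicate 1 held 14 window peaks, and 9 regions were missed by it alone. The background and fragments solved from its peaks, 2.09 at the 1st percentile and a median of 18 fragments, were near the medians over lists, 2.10 and 17. Why its list is short was not tested.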

Other observations

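Away from the genes, 9 regions of the window had a peak in 13 lists, all but TFE3 replicate 1. The widest, chr9:22138561-22154809, was 16249 bp, with a fold of 4.04 to 17.9 and a median of 7.63, and its neighbour chr9:22155384-22164152 had a median of 5.36. Both lie beyond the CDKN2B start. On the other side of MTAP, chr9:21683039-21690843 had a median fold of 9.18 over its 13 lists, while the 9.26 of the MTAP start is over 14 lists. Peaks near the distal end were few: chr9:22446801-22448517 was in 6 lists, chr9:22396172-22397139 in TAZ-CAMTA1 replicate 2 and both libraries labelled YAP-TFE3, and chr9:22342784-22343085 and chr9:22395012-22395700 in YAP-TFE3 replicate 1 alone, with folds of 4.16 and 4.79.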
